A study of Mus musculus with 12 samples.

Results

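Whole skin of Nf1-KO mice 14 days after injury was compared with uninjured skin of Nf1-KO mice by bulk RNA-seq. The comparison used 6 of the 12 samples of the study, 3 injured and 3 uninjured, all labelled with the genotype Prss56Cre,R26tdTom,Nf1flox/-, an age of 3 months and a C57BL/6 and B6D2 background. The other 6 samples, 3 injured and 3 uninjured, came from control mice labelled Prss56Cre,R26tdTom and served to ask whether the response differed between genotypes. They were also part of the fit, so its expression filter, scaling and estimate of spread drew on all 12 libraries. All 4 groups therefore carried the Cre transgene and the tdTomato reporter. As the genotype is written, 1 Nf1 allele was null in every cell and the floxed allele could recombine only where the Prss56 promoter had driven Cre, so whole skin mixes cells with and without recombination. The labels do not say that the 3 samples of a group came from separate animals, so p-values measure the spread between these samples, which may be technical. Members were all autosomal genes: of 49053 autosomal gene identifiers, 44788 had a count in at least 1 Nf1-KO library and 22945 passed the default expression filter and were tested.

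Nf1 encodes neurofibromin, which switches off RAS by speeding its hydrolysis of GTP, and boundary cap cells, named in the title of the series as the site of the knockout, are a source of Schwann cells and of other cells of skin nerves. Skin repairs a wound in overlapping phases: inflammatory cells arrive, keratinocytes migrate and cover the gap, fibroblasts and vessels fill it, and the new matrix is then remodelled. Hair follicles around a wound can leave their resting phase (telogen) and enter the growing phase (anagen), in which matrix cells at the base of the follicle divide and build the hair shaft and its root sheaths. Anagen also occurs on its own cycle in unwounded skin.

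Library totals were 10064140, 11766127 and 11830734 counts in uninjured libraries 1 to 3 and 16513258, 15239824 and 13072756 in injured libraries 1 to 3. Several library properties moved with injury. Xist, expressed from the inactive X chromosome of female cells, stood at 0.761 to 1.61 raw CPM, counts scaled to a fixed library total, in uninjured and 543 to 627 in injured libraries, and the Y-linked Ddx3y at 68.2 to 84.9 in uninjured libraries and 0 in the injured ones. Injury and sex therefore cannot be told apart in these samples, which is why sex chromosomes are not reported. Reads in the olfactory and vomeronasal receptor families, which are mostly silent outside the nose, served as a measure of background: their level was 0.130, 0.205 and 0.110 CPM per kb of exon in uninjured libraries and 0.00227, 0.0177 and 0.0534 in injured ones. Of 408 such genes tested, 209 were called lower and 1 higher. A count was seen for 38490 to 41533 genes in uninjured and 26279 to 34592 in injured libraries, and ribosomal RNA-like genes held 1.39% to 2.26% of counts in uninjured and 1.75% to 4.15% in injured libraries. Skin markers were present: in all 6 libraries keratinocyte genes such as Krt14 (4285 to 9394 CPM) and Krt10 (2164 to 10905 CPM) and the fibroblast gene Col3a1 (266 to 3913 CPM) were abundant. Levels below are CPM after TMM scaling, in the order of libraries 1, 2 and 3, and changes are log2 fold changes, injured over uninjured, ± standard error, with edgeR's adjusted p.

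The injury contrast called 8631 of 22945 autosomal genes at adjusted p under 0.05 (37.6%), 4375 higher (19.1%) and 4256 lower (18.5%), and the median log2 change over all genes tested was -0.09. The 3 injured and 3 uninjured values did not overlap for 11902 genes (51.9%), 5460 of them higher (23.8%) and 6442 lower (28.1%) after injury. Rises and falls differed in level. Genes called higher had a median mean level of 22.4 CPM, against 2.95 CPM for genes called lower, and 1506 of the lower genes averaged under 2 CPM in uninjured skin. Among 16686 protein-coding genes 3947 rose and 2833 fell, whereas among 6259 other genes 428 rose and 1423 fell. With the background count expected per kb of exon subtracted from each library, 4204 genes were called higher and 3830 lower. More than a 16-fold rise was seen for 353 called genes and more than a 16-fold fall for 313. DESeq2, which applies its own scaling and filter, called 4032 higher and 6166 lower, 39.5% higher against 50.7% here. Single libraries also moved the counts: 2248 genes were called lower without injured library 1 and 2589 without uninjured library 2.

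**Figure D1:**
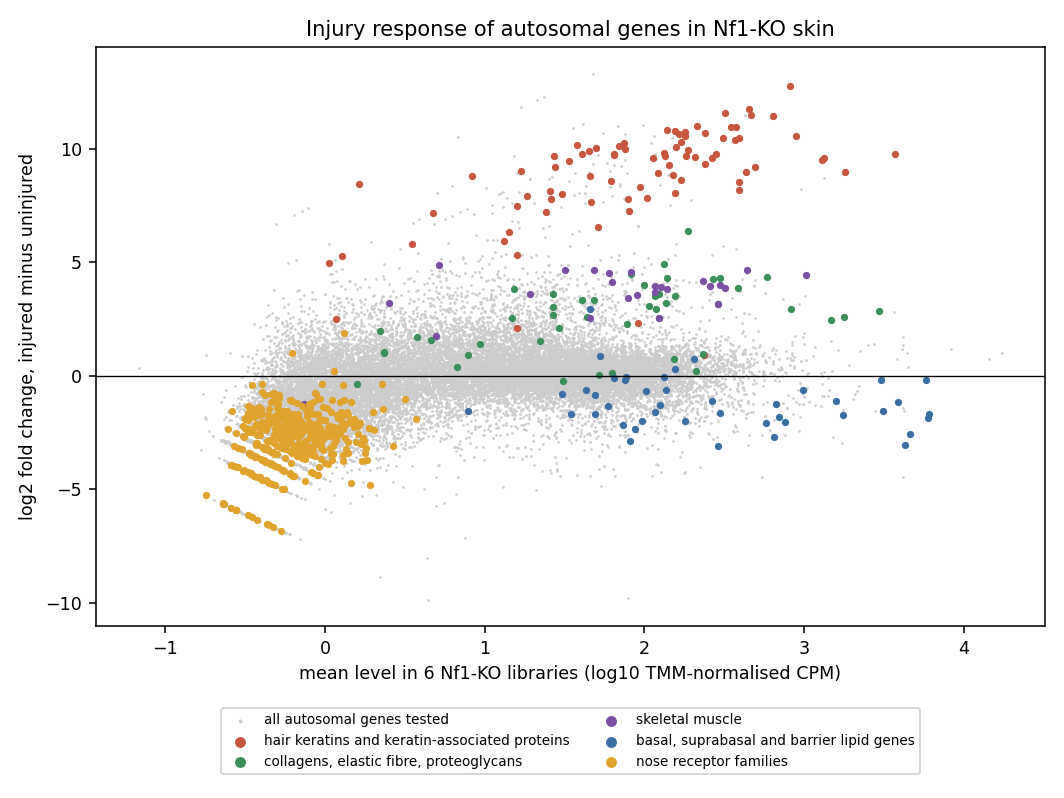
Mean level over the 6 Nf1-KO libraries (log10 CPM, x axis) against the log2 fold change after injury (y axis) for the 22945 autosomal genes tested, 1 point per gene, with coloured gene lists. Hair keratins and keratin-associated proteins lie above the other lists at up to 12.75, basal, suprabasal and barrier lipid genes lie mostly below 0 at high levels, and the nose receptor families form a cloud below 0 near 1 CPM.

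**Figure D2:**
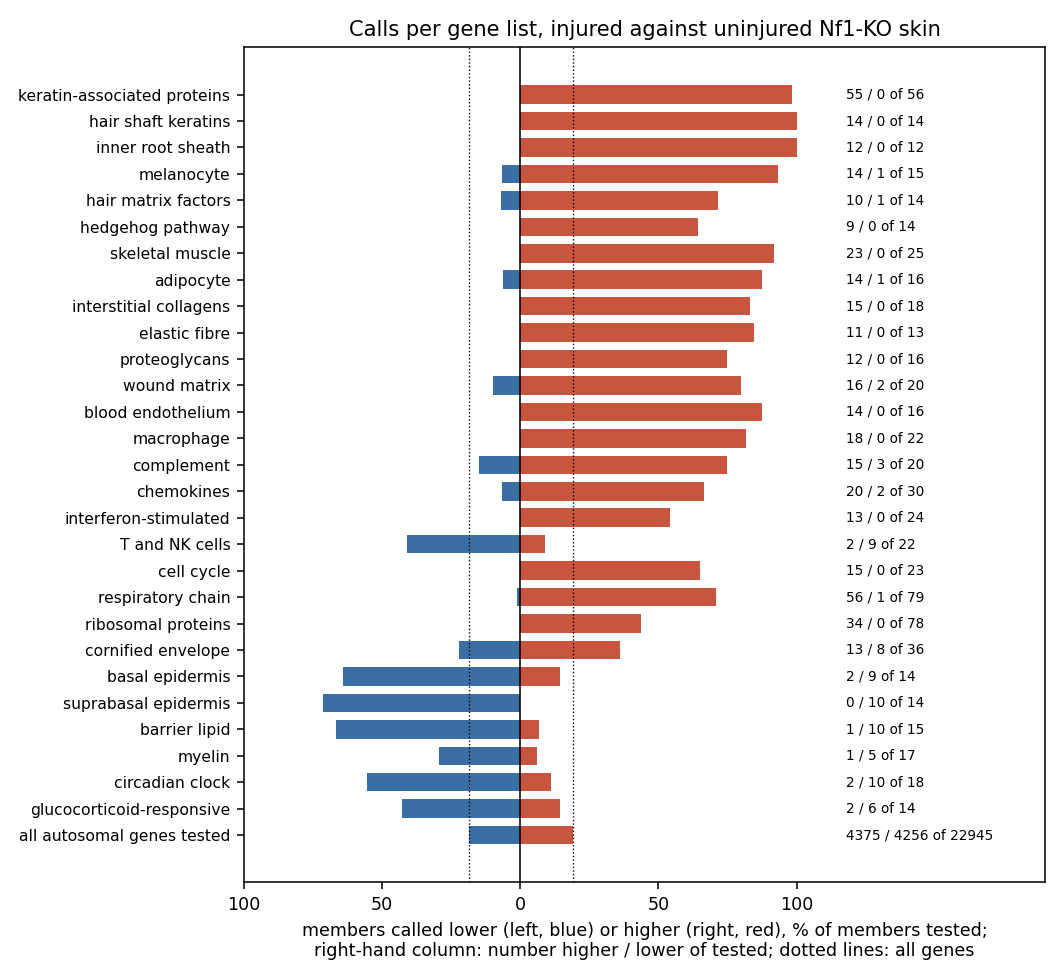
Share of the tested members of each gene list called lower (left) or higher (right) after injury in Nf1-KO skin (x axis, %), with the numbers at the right and dotted lines at the shares over all autosomal genes (18.5% and 19.1%). The 3 lists of hair shaft and sheath proteins were called higher in 55 of 56, 14 of 14 and 12 of 12 members. The basal, suprabasal, barrier lipid and clock lists lean to the left, and the cornified envelope list (13 higher and 8 lower of 36) does not.

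The structural proteins of the hair shaft had the largest rises. Shaft keratins are the intermediate filaments of the hair cortex and cuticle, and keratin-associated proteins are the cysteine-rich or glycine- and tyrosine-rich proteins that embed and cross-link them. All 14 shaft keratins rose (median 9.25, against 19.1% of all genes called higher), as did 55 of 56 keratin-associated proteins (median 9.66). In bulk samples more cells of a type and more RNA per cell cannot be told apart, here and in every list that follows. Krt31, a keratin of the hair cortex (chromosome 11, 100046646 to 100050551, mm10), stood at 0.179, 0.457 and 0.180 CPM in uninjured libraries 1 to 3 and at 523, 688 and 228 CPM in injured ones (log2 10.69 ± 0.65, adjusted p = 2.81e-07). Krt34, a neighbouring cortex keratin, went from 0.0893, 0.152 and 0.360 to 680.3, 333 and 264 CPM, a 2048-fold rise (adjusted p = 2.17e-06). In both genes every injured library was far above every uninjured one. Krtap8-1, a glycine- and tyrosine-rich protein gene of chromosome 16, had the largest rise that the naming rule allows, from 0.0893, 0 and 0.630 to 2422, 1642 and 862 CPM (log2 12.75 ± 0.96, adjusted p = 2.86e-06). Krtap11-1, a cysteine-rich family member, went from 0.357, 0.457 and 0.810 to 1058, 863 and 411 CPM (log2 10.47 ± 0.59, adjusted p = 6.01e-08). Injured library 3 was the lowest of the injured libraries for each of these 4 genes, and no group overlapped. Krtap31-1, with only 3 counts over the uninjured group, was 654-fold higher by pooled CPM (95% counting interval 224 to 3175). The one keratin-associated gene tested that did not pass was Krtap3-2, already at 108, 103 and 281 CPM in uninjured skin and at 466, 223 and 233 CPM in injured skin (log2 0.91 ± 0.48, adjusted p = 0.159). Many of these genes are near-identical neighbours whose reads the counting could split, so values of single members are uncertain.

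The inner root sheath, which moulds the growing shaft and hardens with trichohyalin and its deiminases, rose in the same libraries. All 12 of its genes were called higher (median 8.66). Krt71, a keratin of all its layers (chromosome 15, 101733949 to 101743109), reached 6212, 12295 and 3606 CPM in injured libraries and stood at 0.179, 0.838 and 24.7 CPM in uninjured ones (log2 9.75 ± 1.68, adjusted p = 0.00241). Krt28 went from 1.70, 1.07 and 5.31 to 811, 1155 and 366 CPM (log2 8.18 ± 0.71, adjusted p = 7.23e-06). Padi3, a peptidylarginine deiminase that modifies trichohyalin, went from 0.357, 0.534 and 2.25 to 179, 197 and 104 CPM (log2 7.27 ± 0.61, adjusted p = 5.22e-06). For all 3 genes injured library 2 was highest, injured library 3 lowest, and uninjured library 3 the highest of the uninjured ones. Together the shaft keratins, keratin-associated proteins and inner root sheath genes held 0.0177%, 0.0186% and 0.0415% of all counts in uninjured libraries and 4.36%, 5.34% and 1.96% in injured ones.

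Because these genes moved together, the 250 bases upstream of their RefSeq starts (GRCm38.p6) were searched for short motifs on both strands, or, for the TATA box, on the gene strand between bases -45 and -16. A TATAAA box lay in that window in 4 of 8 shaft keratin, 32 of 51 keratin-associated and 6 of 11 inner root sheath promoters found in the table, against 2.36% of 27025 promoters. CTTTGAA or CTTTGAT, the letters bound by LEF1 and other TCF factors, was present in 4 of 8, 10 of 51 and 1 of 11 (7.67% of all), and AGATAA, which factors such as GATA3 bind, was in 0 of 8, 11 of 51 and 5 of 11 (10.3% of all). Neighbouring family members share sequence, so their promoters are not independent, and a match is a description of letters, not evidence of binding. The last 60 bases before the start are shown for a cortex keratin pair, a sheath keratin and a keratin-associated gene, on the gene strand 5′ to 3′, with the TATAAA box in capitals. They lie at chr11:100050552-100050611 (Krt31), chr11:100041555-100041614 (Krt34), chr15:101743098-101743157 (Krt71) and chr16:89487953-89488012 (Krtap8-1), all on the minus strand.
Krt31: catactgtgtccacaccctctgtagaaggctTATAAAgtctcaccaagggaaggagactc
Krt34: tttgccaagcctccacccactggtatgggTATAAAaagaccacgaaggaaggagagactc
Krt71: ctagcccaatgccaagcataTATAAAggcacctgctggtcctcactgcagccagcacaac
Krtap8-1: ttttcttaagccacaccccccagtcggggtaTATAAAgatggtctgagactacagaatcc
The box begins 29, 31, 40 and 29 bases before the RefSeq start in Krt31, Krt34, Krt71 and Krtap8-1. The Krt71 gene coordinates given above, from another annotation, reach upstream of its RefSeq start and overlap the stretch shown.

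**Figure D3:**
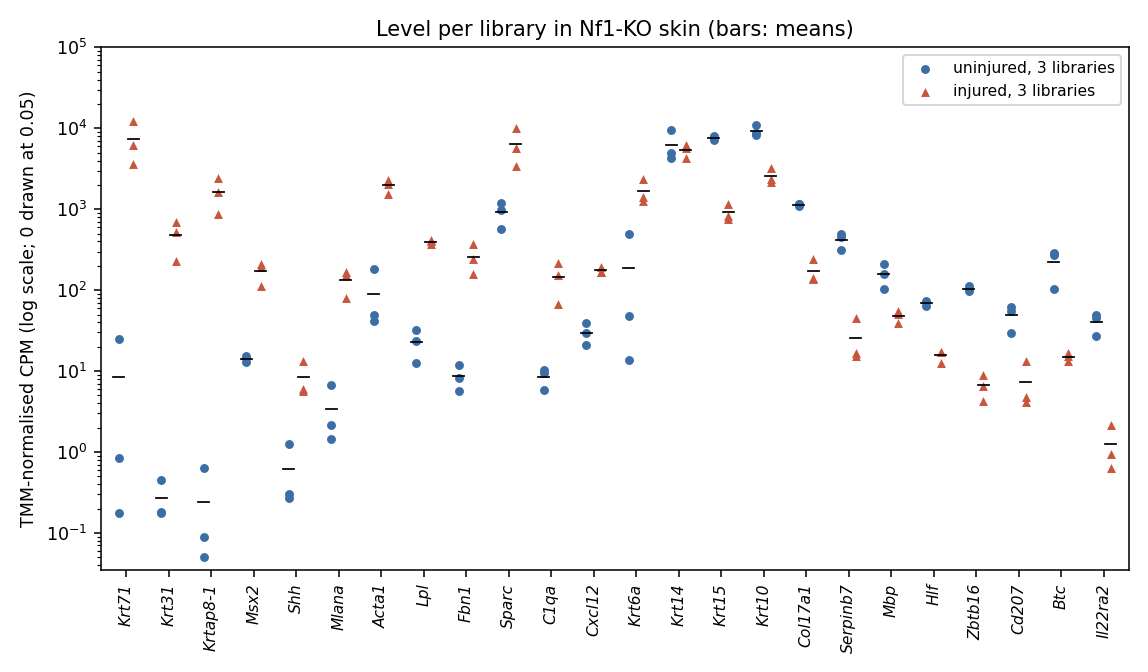
Level of 24 genes in each Nf1-KO library (y axis, TMM-normalised CPM on a log scale, 0 drawn at 0.05), circles for 3 uninjured and triangles for 3 injured libraries, bars for means. Hair, muscle, fat, matrix and macrophage genes on the left are higher after injury, Krt14 overlaps between the groups, and the epidermal, clock and other genes on the right are lower.

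Regulators of the follicle moved with its products. Of 14 hair matrix and shaft transcription factors, 10 rose and 1 fell (median 2.33). Msx2, a homeobox factor of the matrix, stood at 14.5, 15.2 and 13.1 CPM in uninjured and 193, 208 and 112 CPM in injured libraries (log2 3.58 ± 0.30, adjusted p = 4.49e-07). Hoxc13, which activates shaft keratin genes, went from 4.82, 4.57 and 13.1 to 111, 103 and 56.9 CPM (log2 3.60 ± 0.41, adjusted p = 3.01e-05), and Lef1, a nuclear partner of beta-catenin, from 9.28, 7.47 and 12 to 96.6, 113 and 49.9 CPM (log2 3.18 ± 0.31, adjusted p = 1.87e-06). The groups did not overlap for any of the 3, and injured library 3 was again the lowest after injury. Foxe1, a forkhead factor of the lower follicle, had the largest rise of the list (log2 6.25 ± 0.45, adjusted p = 3.72e-07). Gata3, a factor of the inner root sheath that epidermis and lymphocytes also express, was the member that fell, from 596, 669 and 586 to 269.7, 319 and 222 CPM (log2 -1.20 ± 0.21, adjusted p = 0.000419).

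Among the signals that drive the follicle, Hedgehog genes rose in 9 of 14 cases with none lower (median 1.33). Shh, the ligand made by the follicle matrix, went from 0.268, 0.305 and 1.26 to 6.08, 13.2 and 5.75 CPM (log2 3.77 ± 0.59, adjusted p = 0.000146). Its receptor Ptch1, itself a target of the pathway, went from 20.4, 22.6 and 45.2 to 79.6, 84.5 and 68.2 CPM (log2 1.39 ± 0.28, adjusted p = 0.00114), and the effector Gli3 from 17.6, 19.4 and 22.3 to 50.8, 44.1 and 54.5 CPM (log2 1.33 ± 0.21, adjusted p = 0.000138). Every injured value exceeded every uninjured one in these 3 genes. Smo, the signal transducer, was not called (log2 -0.46 ± 0.23, adjusted p = 0.116).

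Of 33 WNT genes, 14 rose (42.4%, against 19.1% of all genes) and 6 fell (18.2%, near 18.5%), with a median of 0.56. With the rRNA-like share added to the fit, 3 fell. Ligands were among both the rises and the falls. Wnt11 went from 4.20, 3.58 and 5.04 to 44.7, 99.6 and 37.1 CPM (log2 3.82 ± 0.35, adjusted p = 1.35e-06) and Wnt5a, a ligand of the dermal papilla and of wound fibroblasts, from 19.99, 13.9 and 21.6 to 85.5, 121 and 76.3 CPM (log2 2.35 ± 0.26, adjusted p = 6.63e-06). Wnt7b, an epithelial ligand, moved the other way, from 116, 142 and 132 to 18.0, 18.9 and 24.0 CPM (log2 -2.68 ± 0.24, adjusted p = 9.32e-07), and Wnt10a also fell (log2 -1.46 ± 0.22, adjusted p = 0.000107). None of the 4 overlapped between groups. The receptor Fzd4 (log2 3.02 ± 0.26, adjusted p = 5.70e-07) and the secreted inhibitor Sfrp4 (log2 4.41 ± 0.46, adjusted p = 3.16e-06) rose. Of 25 BMP and TGF-beta genes 10 rose and 1 fell (median 0.63), among them Id3, a target of BMP signalling, at 162, 159 and 191 CPM in uninjured and 388, 402 and 355 CPM in injured libraries (log2 1.16 ± 0.19, adjusted p = 0.000277), and the inhibitory Smad6 (log2 2.54 ± 0.36, adjusted p = 6.66e-05). The one fall was Bmp2 (log2 -0.74 ± 0.28, adjusted p = 0.0496), a call lost in 8 of 15 alternative settings. Notch genes gave 3 higher (21.4%) and 2 lower (14.3%) of 14, near the 19.1% and 18.5% of all genes: the target Heyl rose (log2 3.48 ± 0.35, adjusted p = 2.40e-06) while the ligands Dll1 (log2 -2.46 ± 0.27, adjusted p = 5.71e-06) and Jag2 (log2 -1.05 ± 0.21, adjusted p = 0.00115) fell.

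The dermal papilla list, for the fibroblasts that instruct the matrix, had 7 of 13 members higher and 1 lower (median 1.26), with Trps1 (log2 1.81 ± 0.25, adjusted p = 4.89e-05) and the WNT inhibitor Wif1 (log2 1.54 ± 0.29, adjusted p = 0.000852) among the rises. Prom1 was the fall, a call lost with the rRNA-like share in the fit (edgeR adjusted p = 0.0541). The other 5 were not called: Rspo3, Ndnf and, named outside the naming rule, Corin, Sox2 and Hey1. Follicle stem cell genes were mixed, 6 higher and 3 lower of 13. Cd34, which marks bulge cells but also vessels and fibroblasts, went from 60.6, 27.6 and 65.4 to 199, 131 and 259 CPM (log2 1.94 ± 0.30, adjusted p = 0.000154). Lgr6, a marker of stem cells above the bulge, went from 103, 91.6 and 126 to 22, 24.9 and 22.7 CPM (log2 -2.21 ± 0.20, adjusted p = 9.32e-07), and Krt15, a keratin of bulge and basal epidermis, from 7195, 8050.5 and 7711 to 756, 1160.1 and 827 CPM (log2 -3.07 ± 0.32, adjusted p = 2.84e-06). All injured values lay below all uninjured ones for Lgr6 and Krt15 and above them for Cd34.

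Pigment cell genes rose in 14 of 15 cases (median 3.16). Mlana, a melanosome protein, stood at 2.14, 1.45 and 6.75 CPM in uninjured and 154, 169 and 79.4 CPM in injured libraries (log2 5.29 ± 0.58, adjusted p = 6.20e-05), and Slc24a5, a melanosome ion exchanger, at 2.59, 3.28 and 3.60 and 38.1, 67.3 and 21.5 CPM (log2 3.74 ± 0.37, adjusted p = 2.02e-06). Kit, the receptor that melanocytes and mast cells need, went from 4.20, 5.64 and 8.19 to 25.0, 34.6 and 23.8 CPM (log2 2.20 ± 0.26, adjusted p = 1.00e-05), and its ligand Kitl also rose (log2 1.85 ± 0.23, adjusted p = 1.56e-05). Groups did not overlap for these 4 genes, and injured library 2, the richest in hair transcripts, was highest in each. Rab27a, which moves melanosomes but is widely expressed, was the member that fell (log2 -1.36 ± 0.21, adjusted p = 0.000151). TCATGTG or TCACGTG, letters bound by MITF, stood in 5 of 12 promoters of the list (6.26% of all promoters). The TCACGTG form contains the CACGTG box searched below.

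The epidermis between follicles moved the other way. The basal layer anchors to the basement membrane through integrins, hemidesmosomes and laminin-332, and of its 14 genes 9 fell and 2 rose (median -1.22). Col17a1, a hemidesmosome collagen (chromosome 19, 47646344 to 47692094), stood at 1144, 1148 and 1101 CPM in uninjured and 141, 242 and 138 CPM in injured libraries (log2 -2.71 ± 0.29, adjusted p = 4.05e-06). Lamb3, a chain of laminin-332, went from 155, 164 and 115 to 18.8, 37.7 and 30.2 CPM (log2 -2.33 ± 0.28, adjusted p = 1.36e-05), and Dst, a plakin that ties keratin to hemidesmosomes, from 796, 876 and 1126 to 216, 181 and 272 CPM (log2 -2.07 ± 0.23, adjusted p = 5.45e-06). Groups were fully separate in these genes. Krt14, the main basal keratin, did not follow: it stood at 4906, 4326 and 9394 CPM in uninjured and 4285, 6289 and 5711 CPM in injured libraries (log2 -0.20 ± 0.35, adjusted p = 0.674), with overlap. Cdh3, P-cadherin of basal and follicle cells, rose (log2 0.86 ± 0.23, adjusted p = 0.00962).

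Suprabasal genes, switched on as keratinocytes leave the basal layer, fell in 10 of 14 cases with none higher (median -1.64). Krt77, a suprabasal keratin, went from 6935, 7292 and 9569 to 1439, 1396 and 1170.1 CPM (log2 -2.57 ± 0.25, adjusted p = 1.85e-06), Dsg1a, a desmosomal cadherin, from 1211, 1348 and 1099 to 245, 431 and 213 CPM (log2 -2.04 ± 0.27, adjusted p = 3.16e-05), and Krtdap, a secreted differentiation protein, from 8090.3, 8355 and 11440.0 to 2854, 2767 and 2930.0 CPM (log2 -1.71 ± 0.24, adjusted p = 6.20e-05). No injured value reached an uninjured one. Krt10 also fell (log2 -1.86 ± 0.31, adjusted p = 0.000261) but its partner Krt1, at 2522, 2509 and 4618 CPM uninjured and 2749, 2933 and 2767 CPM injured, was not called (log2 -0.19 ± 0.32, adjusted p = 0.645). Basal, suprabasal and cornified genes together held 7.94%, 8.34% and 9.60% of counts in uninjured libraries and 3.15%, 3.60% and 2.95% in injured ones. Injured libraries 1 and 2 had the larger hair shares, 4.36% and 5.34%, and library 3 the smaller, 1.96%, while their epidermal shares were close to each other. Whether the gain in hair and dermal transcripts took part in the fall of epidermal ones, as shares of a fixed total, was not tested.

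Enzymes of the barrier lipids, the ceramides and long fatty acids that waterproof the skin surface, fell in 10 of 15 cases and rose in 1 (median -0.85). Sptlc3, a subunit of the first enzyme of ceramide synthesis, went from 165, 164 and 97.9 to 13.6, 30.1 and 15 CPM (log2 -2.86 ± 0.32, adjusted p = 1.04e-05), Elovl1, a fatty acid elongase, from 976, 1096 and 1189 to 279, 356 and 289.9 CPM (log2 -1.82 ± 0.22, adjusted p = 1.59e-05), and Abca12, the lipid transporter of lamellar granules, from 156, 188 and 183 to 49.1, 73.1 and 53.5 CPM (log2 -1.59 ± 0.21, adjusted p = 3.19e-05). The groups were separate in all 3. Degs2 was the member that rose (log2 2.94 ± 0.89, adjusted p = 0.0308), a call lost in 7 of 15 settings. Without injured library 1, 6 members of the list were called lower.

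The cornified envelope list, the proteins cross-linked into the dead surface layer, moved both ways: 13 of 36 rose and 8 fell (median 0.47). Late envelope genes of group 3 and small proline-rich genes, which are raised in wounded and inflamed skin, were among the rises. Lce3f went from 0.0893, 0 and 0.810 to 50.5, 10.8 and 34.9 CPM (log2 6.76 ± 0.93, adjusted p = 0.000399), with injured library 2 the lowest after injury. Lce1m, of group 1, went from 2665, 2988 and 3535 to 409, 396 and 382 CPM (log2 -2.96 ± 0.27, adjusted p = 9.93e-07) and Flg2, a filaggrin-like protein, from 1576, 1697 and 1417 to 239, 413 and 223 CPM (log2 -2.43 ± 0.29, adjusted p = 1.15e-05). Lor, which encodes loricrin, fell (log2 -1.42 ± 0.27, adjusted p = 0.000788). These counts leaned on single libraries: 22 members were called higher without uninjured library 3, and 7 without uninjured library 1 or uninjured library 2. Flg, filaggrin, stood at 247, 185 and 1148 CPM uninjured and 816, 1031 and 745 CPM injured (log2 0.71 ± 0.60, adjusted p = 0.369), with uninjured library 3 above every injured library.

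Keratins of the companion layer and of wounded epidermis also differed with uninjured library 3. Of 9, 5 rose and none fell (median 3.61), and 8 rose without uninjured library 3. Krt17, a stress and follicle keratin, went from 1096, 1104 and 2086 to 3012, 4992 and 2824 CPM (log2 1.33 ± 0.33, adjusted p = 0.00519) and Krt75, of the companion layer, from 39.9, 9.68 and 68.3 to 491, 710.5 and 235 CPM (log2 3.61 ± 0.70, adjusted p = 0.00344). Krt6a, the classic keratin of wound edges, stood at 47.7, 13.9 and 499 CPM in uninjured and 1419, 1257 and 2369.7 CPM in injured libraries. All 3 injured values were above the uninjured ones and uninjured library 3 was far above its own group. The gene was not called (log2 3.17 ± 1.63, adjusted p = 0.157), and its log2 change without that library was 5.80. The simple keratins Krt8 (log2 3.71 ± 0.62, adjusted p = 0.000286) and Krt18 (log2 3.89 ± 0.52, adjusted p = 3.79e-05) rose from low levels.

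Kallikreins, the proteases that shed surface cells, and their Spink inhibitors moved both ways, 5 higher and 5 lower of 12. Klk5, which starts the cascade, went from 396, 415 and 627 to 177, 217 and 169 CPM (log2 -1.36 ± 0.22, adjusted p = 0.000218) and its inhibitor Spink5, LEKTI, from 1471, 1446 and 1479 to 331, 509 and 393 CPM (log2 -1.84 ± 0.22, adjusted p = 1.10e-05). Klk10 went the other way, from 14.6, 15.4 and 55.8 to 155, 207 and 168 CPM (log2 2.62 ± 0.46, adjusted p = 0.00116). All 3 had separate groups, and without injured library 1 the lower calls of the list were 2. Serpins, another class of protease inhibitor, were also split, 6 higher and 6 lower of 17. Serpinb7, an epidermal inhibitor, had one of the steepest epidermal falls, from 456, 493 and 311 to 16.9, 45.2 and 15.3 CPM (log2 -4.03 ± 0.49, adjusted p = 6.30e-05), whereas Serpinf1, the secreted factor PEDF, rose from 19.7, 10.3 and 31.4 to 337, 189.8 and 549 CPM (log2 4.13 ± 0.49, adjusted p = 6.47e-05).

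The dermal matrix rose across its classes. Interstitial collagens gave 15 higher of 18 with none lower (median 2.89), basement membrane collagens and laminins 12 higher and 2 lower of 17 (median 1.98), and collagen-processing enzymes 16 higher and 2 lower of 22 (median 2.05). Col5a3, a minor fibrillar collagen, went from 14.5, 9.53 and 11.4 to 192, 106 and 261 CPM (log2 3.97 ± 0.36, adjusted p = 1.65e-06), Col14a1, which sits on fibril surfaces, from 6.34, 4.27 and 10.6 to 152, 69.5 and 253 CPM (log2 4.48 ± 0.50, adjusted p = 4.14e-05), and Col12a1 from 20.3, 19 and 42.1 to 166, 158 and 302 CPM (log2 2.94 ± 0.37, adjusted p = 4.45e-05). Injured library 3 was the highest of all libraries in each, with no overlap between groups. Col4a1 and Col4a2, paired chains of the vascular basement membrane, rose alike (log2 3.02 ± 0.30, adjusted p = 1.96e-06, and log2 3.05 ± 0.28, adjusted p = 9.64e-07), as did the linker Nid1 (log2 4.09 ± 0.39, adjusted p = 3.80e-06). Lama1, an embryonic laminin chain, fell from 12.8, 12.6 and 10.9 to 0.768, 1.06 and 2.32 CPM (log2 -3.15 ± 0.43, adjusted p = 4.75e-05).

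Among enzymes that finish collagen, Plod2, which hydroxylates telopeptide lysines, went from 1.34, 0.686 and 2.97 to 52.1, 27 and 66.5 CPM (log2 4.88 ± 0.46, adjusted p = 2.62e-06), and Loxl2, a lysyl oxidase that starts cross-links, from 4.02, 2.06 and 5.04 to 62.2, 36.2 and 117 CPM (log2 4.28 ± 0.47, adjusted p = 2.33e-05). The propeptide proteases Adamts2 (log2 3.14 ± 0.29, adjusted p = 1.09e-06) and Bmp1 (log2 2.29 ± 0.27, adjusted p = 1.26e-05) rose with them, with separate groups in all 4. P3h2, a prolyl hydroxylase of basement membrane collagen, fell (log2 -1.51 ± 0.23, adjusted p = 0.000109).

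Elastic fibre genes rose in 11 of 13 cases (median 3.35) and proteoglycan genes in 12 of 16 (median 1.82), with none lower in either. Eln, elastin, stood at 11.3, 10.3 and 18.8 CPM in uninjured and 204, 149 and 434 CPM in injured libraries (log2 4.28 ± 0.44, adjusted p = 1.34e-05), and Fbn1, fibrillin-1, at 8.30, 5.72 and 11.9 and 242, 158 and 371 CPM (log2 4.89 ± 0.37, adjusted p = 4.00e-07). Vcan, versican, went from 6.43, 4.27 and 11.4 to 62.6, 53.5 and 106 CPM (log2 3.33 ± 0.34, adjusted p = 3.44e-06). Once more injured library 3 was highest and no values overlapped. Of 20 wound matrix and myofibroblast genes 16 rose and 2 fell (median 2.40). Sparc, a collagen-binding protein, reached 5714, 3427 and 9952 CPM from 971, 575 and 1202 CPM (log2 2.79 ± 0.40, adjusted p = 7.23e-05), Pdgfra, the fibroblast receptor, went from 7.41, 4.42 and 9.72 to 65.8, 58.3 and 123 CPM (log2 3.52 ± 0.35, adjusted p = 3.95e-06), and Fap, a protease of activated fibroblasts, from 2.77, 4.27 and 2.97 to 31.5, 17 and 33.8 CPM (log2 3.03 ± 0.31, adjusted p = 2.86e-06). Injured library 2 was the lowest of the injured libraries in these 3 genes. The smooth muscle gene Tagln rose (log2 1.86 ± 0.26, adjusted p = 4.86e-05), and Tgfbi (log2 -0.81 ± 0.25, adjusted p = 0.0179) and Cnn1 (log2 -1.74 ± 0.57, adjusted p = 0.0289) were the 2 falls, the call of Cnn1 being lost in 4 of 15 settings.

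Matrix proteases and their TIMP inhibitors rose in 18 of 27 cases and fell in 1 (median 2.12). Adamts5, an aggrecanase, went from 8.30, 4.73 and 7.02 to 60.0, 50.4 and 74.6 CPM (log2 3.20 ± 0.27, adjusted p = 5.20e-07) and Mmp19 from 6.52, 4.42 and 7.56 to 30.9, 17.8 and 59.5 CPM (log2 2.54 ± 0.36, adjusted p = 6.92e-05). Timp3, an inhibitor bound to the matrix, also rose (log2 1.26 ± 0.20, adjusted p = 0.000143), and Mmp28, epilysin of keratinocytes, was the fall (log2 -1.55 ± 0.36, adjusted p = 0.00389). Groups were separate in these 4 genes.

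**Figure D4:**
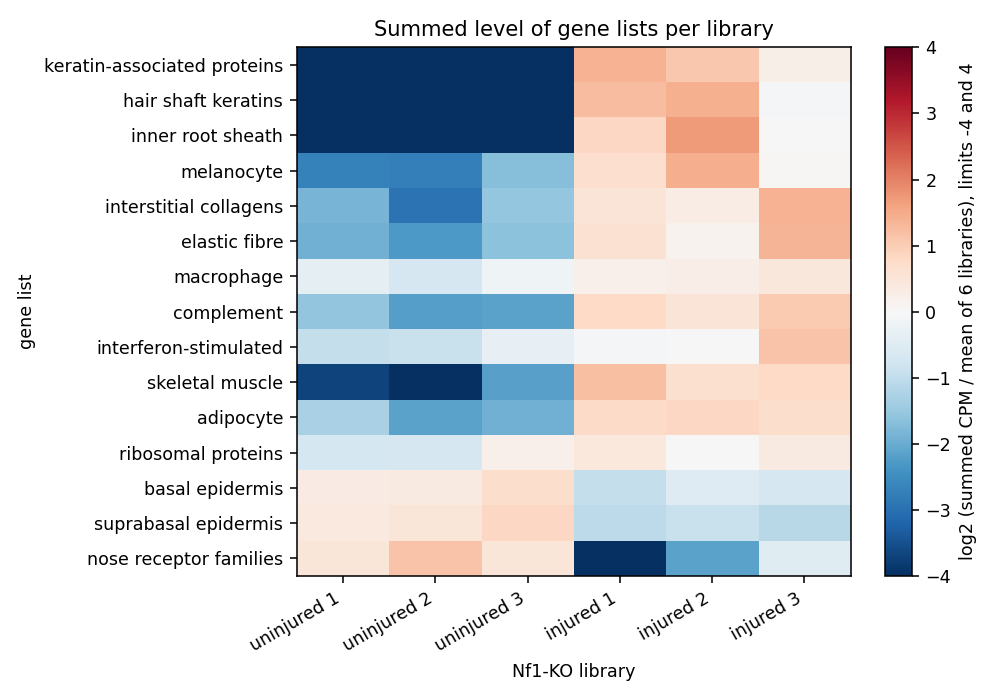
Summed level of 15 gene lists in each Nf1-KO library (colour, log2 of summed CPM over the mean of the 6 libraries, limited to -4 and 4), with 3 uninjured libraries at the left and 3 injured ones at the right. Injured libraries 1 and 2 are highest for hair and pigment lists and injured library 3 for collagens, elastic fibre and interferon-stimulated genes, while uninjured library 3 stands above the other uninjured libraries for muscle and ribosomal proteins.

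Fat, muscle and vessel genes rose too. Of 16 adipocyte genes 14 rose and 1, Acsl1, fell (median 2.82). Lpl, lipoprotein lipase, stood at 32.4, 12.6 and 23.8 CPM in uninjured and 414, 375 and 402 CPM in injured libraries (log2 4.11 ± 0.41, adjusted p = 4.84e-06), and Pck1, an enzyme of glycerol formation in fat, at 1.61, 0.762 and 3.06 and 28.5, 27 and 29.5 CPM (log2 3.98 ± 0.55, adjusted p = 0.00016). The 3 injured libraries were nearly level with each other in both genes.

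Skeletal muscle genes rose in 23 of 25 cases with none lower (median 3.90). Acta1, skeletal actin, went from 49.7, 42.1 and 181 to 2286, 2072 and 1552 CPM (log2 4.44 ± 0.73, adjusted p = 0.00103), Atp2a1, the calcium pump of fast fibres, from 25.4, 23.8 and 75.3 to 683, 557 and 548 CPM (log2 3.84 ± 0.51, adjusted p = 0.000115), and Ttn, titin, from 41.8, 43.5 and 90.5 to 533, 368 and 652 CPM (log2 3.14 ± 0.50, adjusted p = 0.000555). Uninjured library 3 was the highest uninjured library in each, and all injured values were higher still. The summed level of the whole list was 309, 253 and 899.8 CPM in uninjured and 9343, 6316 and 6973 CPM in injured libraries. Myh3, the embryonic myosin of regenerating fibres, was not called (log2 1.75 ± 0.93, adjusted p = 0.157), nor was Pax7, which marks muscle stem cells (log2 -1.24 ± 0.91, adjusted p = 0.287). Myod1, Myog and Myh8 of the same list, named outside the naming rule, were called higher. How much of the muscle sheet beneath the skin each sample held was not tested. Of 8 cartilage and bone genes tested, none rose and 1 fell.

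Blood endothelial genes rose in 14 of 16 cases (median 1.52), pericyte genes in 7 of 11 with 1 lower (median 0.83) and lymphatic genes in 5 of 9 (median 1.72). Cdh5, the cadherin of endothelial junctions, went from 6.25, 3.43 and 5.13 to 33.0, 23.7 and 55.4 CPM (log2 2.92 ± 0.34, adjusted p = 1.08e-05), Rgs5, a pericyte gene, from 17.7, 16.8 and 20.3 to 83.0, 68.6 and 124 CPM (log2 2.32 ± 0.25, adjusted p = 4.39e-06), and Lyve1, of lymphatic vessels and some macrophages, from 2.23, 0.838 and 0.990 to 8.96, 9.44 and 11.6 CPM (log2 2.88 ± 0.41, adjusted p = 6.35e-05). Groups did not overlap, and injured library 3 was highest in each. Vwf was not called (log2 0.48 ± 0.30, adjusted p = 0.205). Haemoglobin genes, a sign of red cells in the sample, were higher as well: Hbb-bs went from 5.53, 1.45 and 0.540 to 74.0, 47.3 and 45.4 CPM (log2 4.47 ± 0.71, adjusted p = 0.00106).

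Macrophage genes rose in 18 of 22 cases with none lower (median 2.89). C1qa and C1qc, subunits of the complement starter C1q that macrophages make, went from 9.55, 5.79 and 10.4 to 154, 68.0 and 217 CPM (log2 4.10 ± 0.38, adjusted p = 2.86e-06) and from 14.6, 8.77 and 17.9 to 221, 108 and 304 CPM (log2 3.93 ± 0.37, adjusted p = 2.60e-06). Mrc1, the mannose receptor of resident and repair macrophages, went from 13.7, 3.96 and 7.56 to 109.9, 61.4 and 128 CPM (log2 3.57 ± 0.37, adjusted p = 7.88e-06). Injured library 2 was the lowest and injured library 3 the highest after injury, all above the uninjured group. Arg1, at 78.3, 71.7 and 62.1 CPM uninjured and 111, 77.6 and 77.1 CPM injured, was not called (log2 0.32 ± 0.20, adjusted p = 0.2). Of 20 complement genes 15 rose and 3 fell (median 2.45). The proteases C1s1 (log2 3.99 ± 0.30, adjusted p = 3.12e-07) and C1ra (log2 3.59 ± 0.29, adjusted p = 4.39e-07) were higher. The cell-surface inhibitors Cd55 (log2 -1.44 ± 0.28, adjusted p = 0.0009) and Cd59a (log2 -1.28 ± 0.24, adjusted p = 0.000826) were lower. The remaining fall was larger: C7 had 116 counts over the uninjured and 3 over the injured group, a 45.2-fold lower pooled level (counting interval 15.1 to 223).

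Chemokines rose in 20 of 30 cases and fell in 2 (median 2.51). Cxcl12, which fibroblasts and the dermal papilla secrete, went from 39.3, 29.3 and 20.9 to 168, 167 and 195 CPM (log2 2.56 ± 0.22, adjusted p = 6.77e-07), and the monocyte attractant Ccl12 from 0.893, 0.457 and 0.540 to 19.8, 8.59 and 14.9 CPM (log2 4.51 ± 0.42, adjusted p = 1.35e-06). Among 20 receptors 8 rose and 4 fell. Ccr2, the receptor of inflammatory monocytes, rose (log2 3.77 ± 0.39, adjusted p = 3.80e-06), as did Ccr1 (log2 3.69 ± 0.51, adjusted p = 4.81e-05). Ccr4, of skin-homing T cells, went from 23.0, 27.8 and 23.1 to 2.37, 3.94 and 2.58 CPM (log2 -3.06 ± 0.25, adjusted p = 4.21e-07), and Ackr4, a chemokine scavenger of keratinocytes, from 75.1, 69.0 and 61.8 to 8.58, 17.5 and 9.36 CPM (log2 -2.54 ± 0.28, adjusted p = 6.63e-06). Both falls were without overlap.

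Cytokines gave 5 higher (17.9%) and 7 lower (25%) of 28, beside 19.1% and 18.5% of all genes, with 2 higher without uninjured library 2 and 8 without uninjured library 3. Il1b, of myeloid cells, went from 0.893, 0.915 and 0.810 to 10.8, 5.71 and 8.24 CPM (log2 3.22 ± 0.48, adjusted p = 0.000108). Il1a, its keratinocyte relative, went from 25.5, 36.1 and 27.3 to 4.23, 9.79 and 3.35 CPM (log2 -2.35 ± 0.39, adjusted p = 0.000365) and Il34, a keratinocyte ligand that Langerhans cells depend on, from 111, 111 and 92.6 to 18.4, 28.2 and 20.3 CPM (log2 -2.24 ± 0.22, adjusted p = 1.85e-06). The groups separated in all 3. Cd207, langerin of Langerhans cells, also fell, from 55.6, 61.4 and 29.3 to 4.10, 13.2 and 4.72 CPM (log2 -2.73 ± 0.42, adjusted p = 0.000295). It was the 1 fall among 17 dendritic and MHC class II genes. Batf3, Itgax and Xcr1 rose, 3 of 17 (17.6%, near the 19.1% of all genes), and none with the rRNA-like share in the fit. The other 13 were not called, Cd74 (log2 0.18 ± 0.26, adjusted p = 0.59) and H2-Ab1 (log2 0.28 ± 0.24, adjusted p = 0.369) among them. Neutrophil genes gave 7 higher of 15 and none lower (median 2.60). S100a8, an alarmin of neutrophils and stressed keratinocytes, stood at 1.25, 1.37 and 20.7 CPM uninjured and 243, 263 and 308 CPM injured (log2 5.13 ± 1.12, adjusted p = 0.00827, and 7.70 without uninjured library 3, whose value was the highest of the uninjured group).

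The T and natural killer cell list leaned lower, and the B and plasma cell list leaned higher. Of 22 T and natural killer cell genes 9 fell (40.9%, against 18.5% of all genes) and 2 rose (9.09%, against 19.1%), with a median of -0.67. Trbc2, a constant region of the T cell receptor, went from 71.2, 71.6 and 89.6 to 31.4, 36.9 and 29.6 CPM (log2 -1.25 ± 0.18, adjusted p = 7.15e-05), Cd3g, a receptor subunit, from 24.9, 19.4 and 10.9 to 2.88, 8.17 and 7.55 CPM (log2 -1.58 ± 0.37, adjusted p = 0.00374), and Prf1, perforin, from 10.2, 7.78 and 2.52 to 1.22, 1.06 and 0.601 CPM (log2 -2.81 ± 0.47, adjusted p = 0.000277). None overlapped. The 9 lower calls became 4 or 5 when either of uninjured libraries 1 and 2 or of injured libraries 1 and 3 was left out. Of the 2 rises, Thy1 (log2 2.70 ± 0.50, adjusted p = 0.00205) is also a fibroblast gene, and the call of Cd5 was lost in 9 of 15 settings. B and plasma cell genes gave 5 higher (41.7%, against 19.1% of all genes) and 2 lower (16.7%, near 18.5%) of 12. Igkc had 3 counts over the uninjured and 418 over the injured group, a 119-fold higher pooled level (counting interval 40.5 to 580). Ighm rose from 21.1, 9.15 and 10.8 to 44.0, 31.7 and 42.3 CPM (log2 1.52 ± 0.29, adjusted p = 0.000803), and Jchain, the joining chain of secreted antibody, from 0.179, 0.229 and 0.180 to 1.79, 0.916 and 6.70 CPM (log2 3.91 ± 0.86, adjusted p = 0.00237), highest in injured library 3.

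Interferon-stimulated genes leaned on the libraries. Of 24, 13 were called higher and none lower (median 1.36), but 3, 7 and 5 were called higher without uninjured library 1, uninjured library 2 and injured library 3, and 2 when the rRNA-like share was added to the fit. The Nf1-KO libraries fitted alone, without the control libraries, gave 7 higher. Without injured library 3, 3 members were called lower. Ifitm3, an antiviral membrane protein, went from 145, 122 and 227 to 385, 379 and 724 CPM (log2 1.59 ± 0.28, adjusted p = 0.0005) and Oasl2 from 2.95, 5.49 and 8.64 to 15.4, 17.4 and 57.4 CPM (log2 2.39 ± 0.51, adjusted p = 0.00307). In both genes injured library 3 was well above the other injured libraries. The summed level of the list showed the same, 362, 373 and 552 CPM uninjured and 671, 684 and 1530.2 CPM injured. The interferon response element (by its core repeat, on either strand) stood in 10 of 19 promoters of the list, against 3.04% of all promoters.

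The lists of the nerve, the tissue that the boundary cap lineage feeds, moved less than hair, matrix or macrophage lists in median change. Of 17 myelin genes 5 fell and 1 rose (median -0.44). Mbp, myelin basic protein, went from 209.9, 159 and 103 to 39.6, 51.1 and 54.5 CPM (log2 -1.71 ± 0.23, adjusted p = 4.30e-05) and Ncmap, a myelin membrane protein, from 16.3, 14.3 and 7.56 to 3.65, 4.86 and 4.38 CPM (log2 -1.57 ± 0.34, adjusted p = 0.00226). Injured values were lower in every library. Pou3f1, a factor of promyelinating Schwann cells that keratinocytes also express, fell (log2 -1.17 ± 0.20, adjusted p = 0.000399), and Pmp22, at 149, 112 and 81.2 CPM uninjured and 131, 144 and 177 CPM injured, was not called (log2 0.40 ± 0.25, adjusted p = 0.203).

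Of 24 Schwann lineage genes 8 rose and 3 fell (median 0.23), with 4 rises without injured library 3 and 5 without uninjured library 2. Cadm4, an adhesion protein between Schwann cell and axon, went from 3.39, 2.59 and 2.52 to 11, 7.19 and 15.8 CPM (log2 1.99 ± 0.33, adjusted p = 0.000252), and Ncam1, of non-myelinating Schwann cells but also of muscle and dermal papilla, from 10.00, 9.68 and 11.3 to 35.8, 17.8 and 67.0 CPM (log2 1.95 ± 0.37, adjusted p = 0.00109). Erbb3, the neuregulin receptor that Schwann cells share with epidermis, went from 134, 158 and 116 to 69.2, 78.7 and 77.0 CPM (log2 -0.86 ± 0.19, adjusted p = 0.00213). Groups did not overlap in the 3 genes. Among 18 genes of repair Schwann cells, the state that follows nerve damage, 5 rose and 2 fell, but the 3 members with the smallest p, Cxcl12, Btc and Shh, are also genes of dermal, epidermal and follicle cells. Jun, the central factor of that state, was not called (log2 -0.01 ± 0.22, adjusted p = 0.976), and Olig1 fell from 7.68, 6.71 and 4.23 to 0.576, 0.282 and 1.29 CPM (log2 -3.14 ± 0.50, adjusted p = 0.000186). Nerve sheath genes gave 4 higher and 4 lower of 15, with the fibroblast factor Prrx1 higher (log2 2.19 ± 0.27, adjusted p = 1.54e-05) and the tight junction gene Cldn1, also epidermal, lower (log2 -1.18 ± 0.29, adjusted p = 0.00488).

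Of 18 axon genes 3 rose and 3 fell (16.7% each, near the 19.1% and 18.5% of all genes; median -1.18), and 8 fell without injured library 3. Tubb3, a tubulin of neurons that melanocyte-lineage cells can also express, went from 0.625, 2.29 and 1.89 to 43.9, 65.2 and 35.3 CPM (log2 4.88 ± 0.36, adjusted p = 2.23e-07), and Gap43, of growing axons, from 2.14, 1.52 and 1.17 to 24.1, 6.90 and 62.7 CPM (log2 4.26 ± 0.76, adjusted p = 0.00158). Injured library 2 was highest for Tubb3 and injured library 3 for Gap43. Sensory channel genes were near the detection limit: Scn9a stood at 3.57, 6.86 and 3.78 CPM uninjured and 0, 0.634 and 1.29 CPM injured (log2 -2.94 ± 0.78, adjusted p = 0.0091), in libraries whose receptor-family background fell as well. The call was lost with the rRNA-like share in the fit (edgeR adjusted p = 0.0703). How large a part background had in the fall of Scn9a was not tested.

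Neurotrophic factors and receptors gave 7 higher and 3 lower of 27. Ret, the receptor of the GDNF family, went from 2.77, 3.13 and 2.52 to 19.8, 19 and 11.3 CPM (log2 2.57 ± 0.32, adjusted p = 2.14e-05), and Igf1, a growth factor of fibroblasts and macrophages, from 17.4, 15.2 and 16.4 to 142, 68.0 and 288 CPM (log2 3.34 ± 0.46, adjusted p = 0.0002). Ntf3, neurotrophin-3, fell from 8.75, 7.85 and 6.93 to 2.82, 2.11 and 3.43 CPM (log2 -1.50 ± 0.40, adjusted p = 0.00894). These groups were separate. Guidance genes, the semaphorins, ephrins, slits, netrins and their receptors, gave 21 higher (46.7%) and 7 lower (15.6%) of 45 (median 0.47). Lower calls were 4 without injured library 1. The receptor Nrp2 went from 17.2, 15 and 23.9 to 89.6, 82.7 and 87.7 CPM (log2 2.21 ± 0.21, adjusted p = 1.35e-06) and the ligand Ntn1 rose (log2 2.31 ± 0.28, adjusted p = 1.38e-05), whereas the ligand Sema3d went from 158, 134 and 92.9 to 19.98, 23.2 and 19.9 CPM (log2 -2.61 ± 0.20, adjusted p = 3.39e-07) and Sema3f fell (log2 -1.30 ± 0.20, adjusted p = 0.000136). Nrp2 and Sema3d had 3 nearly level injured libraries each.

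The RAS and ERK list, the pathway that neurofibromin restrains, had 12 of 35 members higher and 4 lower (median 0.30). Dusp6, a phosphatase induced by ERK that switches ERK off, went from 24.9, 22.4 and 22.3 to 66.1, 88.3 and 63.9 CPM (log2 1.64 ± 0.23, adjusted p = 5.72e-05), and Etv4, an ERK-driven ETS factor, from 4.91, 3.13 and 11.6 to 25.8, 31.5 and 29.9 CPM (log2 2.15 ± 0.40, adjusted p = 0.000838). Egr1, an immediate early target, went from 43.2, 48.4 and 51.4 to 205, 141 and 80.6 CPM (log2 1.57 ± 0.28, adjusted p = 0.000442). All injured values were above the uninjured ones. Spry1, a feedback inhibitor, fell (log2 -1.40 ± 0.36, adjusted p = 0.00818), Rasal1, another RAS GTPase activator, fell (log2 -1.78 ± 0.34, adjusted p = 0.000782), and Hras (log2 -0.37 ± 0.22, adjusted p = 0.203) and Mapk3 (log2 0.08 ± 0.25, adjusted p = 0.829) were not called. FGF and EGF families split, 10 higher and 9 lower of 34. Btc, betacellulin, an EGF receptor ligand, had a large fall from 271, 291 and 103 to 16.6, 15.4 and 13.1 CPM (log2 -3.89 ± 0.35, adjusted p = 1.43e-06), while its relative Hbegf rose from 6.25, 5.95 and 11.2 to 49.0, 25.5 and 37.1 CPM (log2 2.25 ± 0.38, adjusted p = 0.000491), with separate groups in both. Fgf5, the signal that ends anagen, rose from 0.446, 0.991 and 0.540 to 9.16, 8.95 and 3.00 CPM (log2 3.38 ± 0.52, adjusted p = 0.000138), and the epithelial receptors Fgfr2 (log2 -1.77 ± 0.23, adjusted p = 3.04e-05) and Fgfr3 (log2 -1.50 ± 0.23, adjusted p = 0.000156) fell.

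Nf1 itself was not called. Raw CPM were 9.94, 11 and 8.96 in uninjured and 10.1, 8.14 and 14.1 in injured libraries, means of 9.98 ± 1.05 and 10.8 ± 3.03 (SD, n = 3), and the log2 difference of 0.08 had a 2-sided exact permutation p of 0.8, where 3 against 3 cannot go below 0.1. Reads of an intact and of a recombined allele are summed in a gene's count, so this gives no check of the genotype label. Prss56, whose promoter drives Cre, stood at 0.268, 0.762 and 0.0900 CPM in uninjured and 0, 0.634 and 0.172 CPM in injured libraries (log2 -0.50 ± 1.13, adjusted p = 0.745).

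Genes of dividing cells rose in 15 of 23 cases with none lower (median 1.44). Cdk1, the mitotic kinase, went from 15.5, 12.3 and 31.5 to 88.9, 102 and 84.4 CPM (log2 2.21 ± 0.28, adjusted p = 2.19e-05), Plk1 from 5.98, 4.95 and 14.0 to 37.9, 49.5 and 42.0 CPM (log2 2.37 ± 0.32, adjusted p = 4.55e-05), and Birc5, survivin, from 11.2, 11 and 27.8 to 85.9, 70.4 and 92.6 CPM (log2 2.32 ± 0.31, adjusted p = 5.38e-05). Uninjured library 3 was the highest of its group and still below each injured library. The arrest gene Cdkn1a was not called (log2 0.12 ± 0.22, adjusted p = 0.699). Imprinted genes, many of which restrain or drive growth in early life, rose in 15 of 17 cases (median 2.76). Peg3 went from 7.41, 3.43 and 7.65 to 74.7, 51.8 and 121 CPM (log2 3.74 ± 0.35, adjusted p = 1.85e-06), Grb10 from 9.19, 8.38 and 7.74 to 76.3, 33.3 and 113 CPM (log2 3.13 ± 0.35, adjusted p = 1.22e-05) and Igf2, which drives fetal growth, from 1.07, 1.68 and 2.16 to 17.4, 7.19 and 35.9 CPM (log2 3.61 ± 0.58, adjusted p = 0.000398). Injured library 3, richest in dermal matrix genes, was highest in all 3 and injured library 2 lowest among the injured.

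Energy and translation genes moved less steeply. Nuclear-encoded respiratory chain subunits rose in 56 of 79 cases and fell in 1 (median 0.89). Sdhb, of complex II, went from 114, 104 and 167 to 328, 376 and 275 CPM (log2 1.34 ± 0.21, adjusted p = 0.000177), and Cox7a1, the heart and muscle isoform of a complex IV subunit, from 1.16, 0.915 and 3.51 to 33.3, 19.7 and 21.1 CPM (log2 3.74 ± 0.52, adjusted p = 0.000102). Both were separate between groups, and muscle genes rose in the same libraries. The part of muscle in the respiratory calls was not tested. Cytosolic ribosomal protein genes gave 34 higher of 78 and none lower (median 0.60), with 65 higher without uninjured library 3, and 9, 7 and 15 without uninjured library 1, uninjured library 2 and injured library 1. With the Nf1-KO libraries fitted alone 14 were higher. Rpl38 stood at 66.5, 64.9 and 156 CPM uninjured and 347, 199 and 360.0 CPM injured (log2 1.65 ± 0.35, adjusted p = 0.00252), while Rplp0, at 846, 959 and 1235 and 1293, 849 and 1183 CPM, overlapped (log2 0.13 ± 0.25, adjusted p = 0.718). Hypoxia and glycolysis genes gave 5 higher (21.7%) and 8 lower (34.8%) of 23, beside 19.1% and 18.5% of all genes, with 4 lower without injured library 1. Pfkm, the muscle phosphofructokinase, rose (log2 2.52 ± 0.34, adjusted p = 7.97e-05), its liver-type relative Pfkl fell (log2 -1.03 ± 0.22, adjusted p = 0.0022), and Ldha was not called (log2 0.31 ± 0.28, adjusted p = 0.392). Proteasome subunits gave 7 higher (18.4%, near the 19.1% of all genes) and 1 lower (2.63%, against 18.5%) of 38. There were 14 higher without uninjured library 3 and 3 without uninjured library 2, and 5 lower without injured library 2.

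Circadian clock genes, whose transcript levels swing with time of day, fell in 10 of 18 cases and rose in 2 (median -1.20). Hlf, an output factor of the clock, stood at 72.7, 71.0 and 63.6 CPM in uninjured and 12.5, 17.3 and 17.4 CPM in injured libraries (log2 -2.14 ± 0.20, adjusted p = 1.43e-06), and Cry2, a repressor of the loop, at 85.7, 92.8 and 67.0 and 27, 27 and 25.6 CPM (log2 -1.63 ± 0.19, adjusted p = 9.26e-06). The injured libraries were nearly level in Cry2, and no value of either gene came near the other group. Nfil3, which acts against Hlf and its relatives, rose (log2 1.83 ± 0.37, adjusted p = 0.00144). The labels used here give no time of day for the samples, so a difference in sampling time cannot be told apart from injury. Ciart, a repressor of the CLOCK and BMAL1 pair, fell from 40.0, 45.6 and 39.3 to 7.04, 9.16 and 9.10 CPM (log2 -2.31 ± 0.22, adjusted p = 1.42e-06). The E-box CACGTG, bound by that pair, was in 5 of 15 clock promoters (6.05% of all promoters). A stretch of the Ciart promoter on the gene strand (chr3:95882312-95882371, minus strand, GRCm38.p6), 143 to 84 bases before the start, is shown with the E-box in capitals.
Ciart: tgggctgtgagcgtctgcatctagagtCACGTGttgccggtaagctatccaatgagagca

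Genes that glucocorticoids induce were lower in the same contrast, 6 of 14 with 2 higher (median -0.67). Zbtb16 (PLZF) went from 103, 97.0 and 113 to 4.29, 9.02 and 6.61 CPM (log2 -3.98 ± 0.32, adjusted p = 4.47e-07), Fkbp5, a chaperone of the glucocorticoid receptor, from 217, 222 and 222 to 16.4, 27.5 and 26.9 CPM (log2 -3.23 ± 0.48, adjusted p = 0.000397), and Klf9 from 152, 137 and 154 to 32.7, 44.4 and 55.3 CPM (log2 -1.75 ± 0.31, adjusted p = 0.000557). Uninjured libraries were tight and no injured value came near them. Hsd11b1, which regenerates active glucocorticoid, rose from 5.09, 3.13 and 4.32 to 7.43, 14.9 and 16.7 CPM (log2 1.63 ± 0.41, adjusted p = 0.0056). The metallothionein Mt2 was the other rise, from 206, 185 and 480 to 583, 510 and 599 CPM (log2 0.96, adjusted p = 0.0297). Its call was lost with the rRNA-like share in the fit (edgeR adjusted p = 0.141). Mt1 was not called (log2 0.86, adjusted p = 0.0812).

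With symbols of predicted genes, Rik clones and pseudogenes left out, the 8 largest falls above 2 mean CPM included Il22ra2, Upk3b, Best2 and Defb8. Il22ra2, a decoy receptor for interleukin-22, went from 45.7, 49.5 and 27.3 to 0.640, 2.18 and 0.944 CPM (log2 -5.02 ± 0.43, adjusted p = 1.09e-06), and Upk3b, a uroplakin, from 12.2, 19.3 and 6.93 to 0.0640, 0.634 and 0.343 CPM (log2 -5.20 ± 0.54, adjusted p = 3.16e-06). Best2, a bestrophin anion channel, had 1 count over the injured group against 7.41, 8.61 and 9.90 CPM in uninjured libraries, a 358-fold lower pooled level (95% counting interval 63.8 to 14189). Defb8, a beta-defensin, had no count in injured skin and was at least 115-fold lower against a floor of 3 counts over the group, with most of its uninjured signal in library 3 (3.30, 0.305 and 22.9 CPM). Chosen after its values were seen and outside the naming rule as a Rik clone, 9130204L05Rik on chromosome 3 fell from 284, 78.7 and 109 to 0.320, 0.0704 and 0.0859 CPM (log2 -9.80 ± 1.49, adjusted p = 0.00133), the steepest fall among the called genes above 50 CPM in uninjured skin. Ranked by mean CPM per kb of exon, the most abundant autosomal transcript was Krtdap in both groups, and 3 hair genes (Krtap22-2, Krt71 and Krtap8-1) were among the 10 highest after injury and none before.

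The response was then set against that of control skin, whose 6 libraries are other samples, though part of the same fit, and show the same split of sex. Their receptor-family background also fell with injury, and further: it was 0.0941 to 0.330 CPM per kb in control uninjured and 0.00233 to 0.00639 in control injured libraries, and 395 of the 408 receptor genes were called lower in control skin (median log2 change -6.41) against 209 in Nf1-KO skin (median -2.58). In control skin 5225 autosomal genes were called higher (22.8%) and 7503 lower (32.7%). Of the genes higher in Nf1-KO skin 82.9% were also called higher in control skin, and these were 69.4% of the control list. For lower genes the shares were 88.1% and 49.95%. The part of the background in the larger count of lower genes in control skin, and in the second share, was not tested. No gene was called higher in Nf1-KO and lower in control skin, and 3 were called lower in Nf1-KO and higher in control skin: Ifi202b, Cbr3 and Teddm2, the last named after its values were seen. The Nf1-KO call of Ifi202b was lost with the rRNA-like share in the fit (edgeR adjusted p = 0.109) and without injured library 1 (0.0778), and that of Cbr3 without uninjured library 3 (0.117) or injured library 1 (0.116). The difference between the responses itself was called for none of 22945 genes (0%) by edgeR, with a smallest adjusted p of 0.0984, for 36 by DESeq2 and for 0 by limma voom, while 2477 genes (10.8%) had an unadjusted p under 0.05. No single gene passed edgeR's test of a different response, and the statements that follow give levels and differences without a call.

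The 10 genes with the smallest p for that difference were led by Zbtb16. It stood at 42.8, 33.7 and 55.1 CPM in control uninjured and 9.85, 22.1 and 19 CPM in control injured libraries, with a log2 change of -1.37 in control skin beside -3.98 in Nf1-KO skin (difference -2.61 ± 0.41, unadjusted p = 1.01e-05, adjusted p = 0.0984). The uninjured Nf1-KO libraries were the highest of all 4 groups and the injured Nf1-KO libraries the lowest. Fkbp5, another glucocorticoid-induced gene, had the same order, with 33.4, 34.5 and 117 CPM in control uninjured and 33.8, 66.9 and 39.1 CPM in control injured libraries beside the Nf1-KO values given above. Glul, glutamine synthetase, rose in control skin (log2 1.44) and was not called in Nf1-KO skin (log2 -0.46 ± 0.22, adjusted p = 0.107, difference -1.90 ± 0.31, unadjusted p = 1.34e-05, adjusted p = 0.0984). Ifi202b, an interferon-inducible gene, went from 15.4, 18.5 and 12.3 to 4.16, 6.97 and 7.73 CPM in Nf1-KO skin (log2 -1.30 ± 0.37, adjusted p = 0.0133) and had a control change of 1.59 (difference -2.90 ± 0.52, unadjusted p = 4.70e-05, adjusted p = 0.172). Brinp3 and Plscr4 fell in control skin (log2 -3.66 and -2.87) and overlapped between the Nf1-KO groups. Best2 fell in both genotypes (log2 -2.05 in control skin, unadjusted p for the difference 5.10e-05), and Sult5a1, a sulfotransferase, fell in Nf1-KO skin (log2 -1.81) with a control change of -0.19 that was not called (unadjusted p for the difference 7.08e-05). The other 3 of the 10 were Cbr3, Dnase1l3 and Gzmc, a granzyme called higher in control skin (log2 3.12) and not called in Nf1-KO skin (log2 0.27 ± 0.40, adjusted p = 0.608).

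Among the gene lists, medians of the difference lay on both sides of the median of all genes. Over all genes the median difference between the responses, Nf1-KO minus control, was 0.17. It was -0.56 for suprabasal genes, -1.32 for cornified envelope genes, -0.65 for ribosomal proteins, 0.78 for interferon-stimulated genes and 1.17 for skeletal muscle, and no member of these lists was called. For the 408 receptor genes used as background it was 3.33, with 171 of them at an unadjusted p under 0.05, and its part in the other medians was not tested. Krtdap, for example, had a log2 change of -0.56 in control and -1.71 in Nf1-KO skin (difference -1.15 ± 0.33, unadjusted p = 0.00314, adjusted p = 0.442), and Fkbp5 of -0.41 and -3.23 (difference -2.82 ± 0.64, unadjusted p = 0.000929, adjusted p = 0.442). Hair shaft keratins rose in all 14 cases in both genotypes, with medians of 9.10 in control and 9.25 in Nf1-KO skin, and macrophage genes in 17 and 18 of 22.

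**Figure D5:**
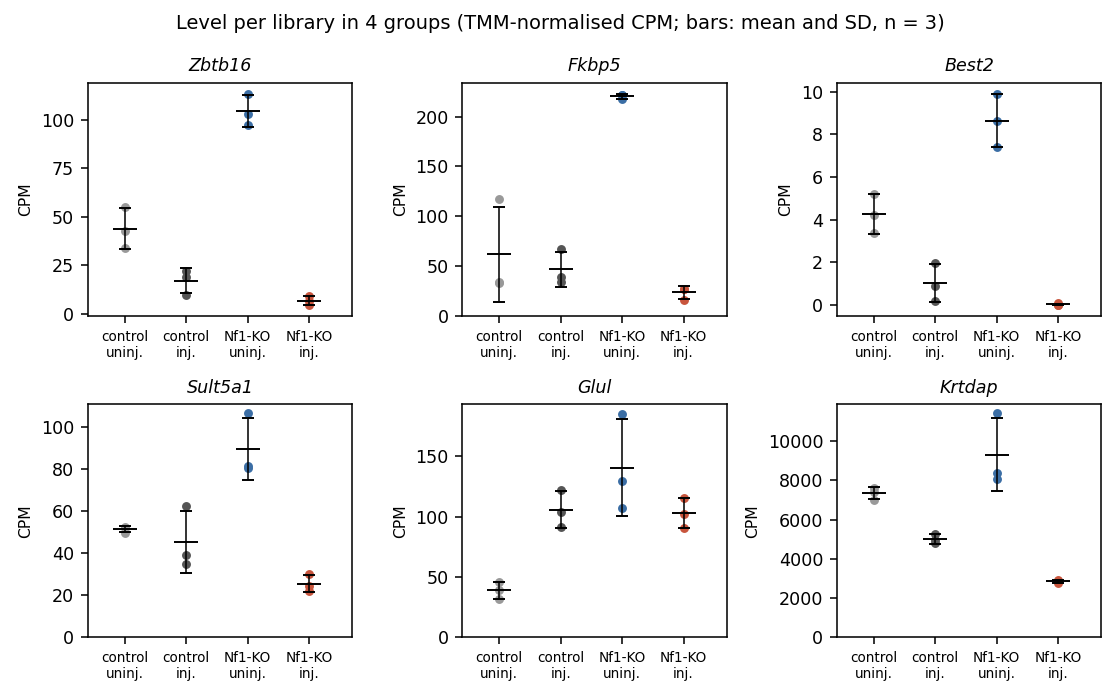
Level of 6 genes in each of the 12 libraries (y axis, TMM-normalised CPM from 0), points for libraries and bars for mean and SD (n = 3) in control uninjured, control injured, Nf1-KO uninjured and Nf1-KO injured skin. Zbtb16, Fkbp5, Best2 and Sult5a1 are highest in uninjured Nf1-KO skin, Glul is lowest in uninjured control skin, and Krtdap is lower after injury in both genotypes; no difference between the responses was called.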

How the data were processed

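Bulk RNA-seq was done on 12 samples of whole skin, 3 in each of 4 groups. Per the labels' protocols, RNA was extracted with a fibrous tissue kit, and 10 ng was amplified with Smart-Seq v4 and made into Nextera XT libraries, which do not mark strand, so reads of a gene and of one overlapping it on the opposite strand are not separable. The submitters' processing notes name STAR 2.5.2b, SAMtools, HTSeq 0.5.3, DESeq2, HOMER and mm10, without roles. The deposited values are raw counts per gene, not normalised. Each sample's column was read from its own file, and 1 further column, of a sample outside the 12, stayed out. Of 53379 identifiers, 53274 matched GENCODE M21 (GRCm38), which gave chromosomes and exon lengths. Unmatched identifiers held at most 0.0454% of counts.

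Counts were fitted with edgeR 4.0.16 (R 4.3.3): filterByExpr with a minimum count of 10, TMM scaling, 4 group means over 12 libraries, robust quasi-likelihood F test, Benjamini-Hochberg adjustment over all 23635 genes tested, and calls at adjusted p under 0.05. The difference between responses was the interaction contrast. The fit was tested on simulated data. Levels are CPM with TMM library sizes. Intervals (95%, exact) and floors (3 counts over a group) cover counting error only. DESeq2 1.42.0, limma 3.58.1 and 13 other settings were alternatives. Same-numbered samples were checked for pairing (r of 0.0572, 0.0354 and -0.0804), and the numbers did not pair them.

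Named genes were, by rule, up to 8 largest rises and falls above 2 mean CPM without overlap (symbols of predicted genes, Rik clones and pseudogenes left out), up to 4 called members in each direction with the smallest p and up to 2 uncalled members with the highest level in each list, the 10 smallest p of the interaction, Nf1, Prss56, and the 10 most abundant genes per kb of each group. Exceptions are marked in the text. Members and lists were chosen with earlier results of these data known. Promoters came from a RefSeq table (GRCm38.p6). Figures used matplotlib 3.10.9 and Python 3.11.15.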

Additional observations from a re-analysis of the deposited data

How the results depend on the processing

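As reported, the counts were 4375 genes higher and 4256 lower after injury in Nf1-KO skin. Leaving out each Nf1-KO library in turn gave 2921 to 4713 higher and 2248 to 5843 lower. With the rRNA-like share added to the fit as a covariate 2471 were lower. Other settings stayed within 1.5 times of both counts. The Nf1-KO libraries fitted alone gave 3652 higher and 3254 lower of 19579 genes tested. The replicate block gave 4313 higher and 3649 lower, and 0 calls of a different response. It ended the call of 9 named genes and added 8. Median-of-ratios scaling moved the median log2 change over all genes from -0.09 to -0.20, and it called 43.1% of the changed genes higher against 50.7%. Calls of a different response between the genotypes were 229 without an expression filter, 36 with DESeq2, 3 with the covariate, and 0 to 2 when a library was left out. The cause was not tested. Among 508 named genes, none called in the main fit or in an alternative setting had the opposite direction in that setting. Genes called in neither were not checked for direction, and not every named gene was tested in all 15 settings. The covariate also moved list counts: higher calls went from 34 to 7 for ribosomal proteins, 13 to 6 for cornified envelope, 8 to 5 for chemokine receptors and for Schwann genes, 8 to 4 for Hox genes, 7 to 4 for neutrophil and 3 to 0 for dendritic genes, and lower calls from 9 to 5 for T and NK cell genes, 8 to 5 for hypoxia and glycolysis, 7 to 4 for guidance and 5 to 2 for cholesterol genes. It ended the call of 42 named genes, and leaving out injured library 1 or uninjured library 2 ended 34 and 30. With 3 libraries a group, sex split with injury and a background that was higher in uninjured libraries, genes near 1 CPM are the least certain.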

Other observations

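Of 15 mast cell genes 8 rose in injured Nf1-KO skin (53.3%, against 19.1% of all genes), with a list median of 1.69. The share that fell, 2 of 15 (13.3%), was below the 18.5% of all genes. Tpsb2, a tryptase of connective tissue mast cells, stood at 1.79, 0.610 and 2.43 CPM in uninjured and 71.9, 61.6 and 127 CPM in injured libraries (log2 5.77 ± 0.49, adjusted p = 2.39e-06), and Cpa3, a mast cell carboxypeptidase, at 3.12, 1.83 and 3.51 and 18.3, 25.8 and 29.96 CPM (log2 3.13 ± 0.46, adjusted p = 0.000151). Mrgprb2, the receptor by which such cells answer basic peptides, went the other way, from 9.82, 18.4 and 8.82 to 1.41, 1.90 and 1.20 CPM (log2 -3.03 ± 0.45, adjusted p = 0.000104). The groups did not overlap in any of the 3. Of 25 antimicrobial genes 14 rose and 2 fell (median 1.68). S100a3, a calcium-binding protein of the hair cuticle, went from 5.53, 4.04 and 9.63 to 2084, 2328 and 1279 CPM (log2 8.21 ± 0.60, adjusted p = 4.73e-07) and Wfdc18 from 0.625, 0.381 and 4.68 to 179, 210.1 and 149.9 CPM (log2 6.59 ± 0.98, adjusted p = 0.000986), while Defb1, a constitutive beta-defensin, fell from 78.5, 92.5 and 88.7 to 22.5, 35.2 and 23.4 CPM (log2 -1.68 ± 0.20, adjusted p = 1.13e-05). For S100a3 the injured libraries followed the order of the inner root sheath genes, library 2 highest and library 3 lowest.

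Among lipid synthesis genes, those of the sebaceous gland gave 4 higher (30.8%) and 3 lower (23.1%) of 13, beside 19.1% and 18.5% of all genes. Sterol genes gave 2 higher (10.5%) and 5 lower (26.3%) of 19, with 9 lower without injured library 2. Dgat2, which makes triglycerides, went from 607, 646 and 592 to 110.1, 199 and 81.0 CPM (log2 -2.24 ± 0.32, adjusted p = 6.47e-05) and Dhcr7, of the last step to cholesterol, from 254, 263 and 245 to 80.7, 108 and 78.2 CPM (log2 -1.52 ± 0.21, adjusted p = 4.38e-05), whereas Soat1, which stores cholesterol as esters, rose from 76.4, 43.6 and 56.6 to 145, 179.7 and 152 CPM (log2 1.43 ± 0.22, adjusted p = 0.000133). Heat shock genes gave 5 higher and 5 lower of 16 (31.25% each). The inducible Hspa1a fell from 122, 130.3 and 82.7 to 33.6, 42.2 and 24.7 CPM (log2 -1.74 ± 0.26, adjusted p = 9.28e-05), and Serpinh1, the collagen chaperone, rose from 95.6, 62.0 and 119 to 427, 420.3 and 747 CPM (log2 2.52 ± 0.40, adjusted p = 0.000266), highest in injured library 3 like the collagens. Of 31 Hox genes, which hold the position of cells along the body, 8 rose (25.8%) and 4 fell (12.9%), beside 19.1% and 18.5% of all genes. Rises were 4 or 5 when any of uninjured libraries 1 and 2 or injured libraries 1 and 3 was left out. There were 5 rises with the Nf1-KO libraries fitted alone. Hoxd8 went from 10.9, 6.86 and 8.91 to 32.6, 45 and 36.9 CPM (log2 2.10 ± 0.24, adjusted p = 1.00e-05) and Hoxa7 from 78.2, 81.1 and 75.9 to 42.8, 39.2 and 34.8 CPM (log2 -1.01 ± 0.23, adjusted p = 0.0029). The labels used here do not say from which part of the body each sample was taken, so a difference in site cannot be told apart from injury. Of 22 immediate early genes 4 rose (18.2%) and 2 fell (9.09%), beside 19.1% and 18.5% of all genes, and 7 rose without injured library 3. Klf4 was lower (log2 -1.02 ± 0.19, adjusted p = 0.000591) and Klf2, of endothelial cells, higher (log2 1.49 ± 0.27, adjusted p = 0.000569).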
